A study of Caenorhabditis elegans with 15 samples.

Results

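Lysozymes, saposin-like proteins and small antimicrobial peptides are the secreted molecules with which Caenorhabditis elegans attacks the bacteria and fungi that it eats or that infect it. The members described here are the array probes whose sequence name belongs to a gene of class lys (lysozymes related to those of protists), ilys (invertebrate-type lysozymes), spp (saposin-like proteins, also called caenopores), abf (antibacterial factors, related to defensins), cnc (caenacins) or fip (fungus-induced proteins). Of the 19084 gene probes on the array, 56 met this rule and stood for 55 of the 70 genes of these classes in the RefSeq annotation, and the other 15 genes had no matching probe. The probes covered 10 of 10 lys, 5 of 6 ilys, 21 of 30 spp, 6 of 6 abf, 8 of 11 cnc and 5 of 7 fip genes, with 1 spot per probe and 2 probes for spp-14, which represent different isoforms. Of the 55 genes, 5 lie on chromosome I, 3 on II, 3 on III, 15 on IV, 18 on V and 11 on X, and 30 of them stand in 12 stretches of neighbouring genes of these classes, taken as at most 5 other genes apart.

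Lysozymes cut the cell wall of bacteria, and many are made in the intestine, where they serve both digestion and defence. Caenopores are small proteins with a fold held by disulphide bonds, and those that have been purified open pores in bacterial membranes. Caenacins and fungus-induced proteins are short peptides best known from the epidermis after fungal infection. Several of these genes are known to depend on p38 MAP kinase, TGF-beta or GATA factor signalling, so the worm can raise them when its microbial surroundings change.

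Wild-type worms of strain N2 (Bristol), as L4 larvae and young adults, were kept for 48 h in sediment of the river Elbe, Rhine or Danube, with E. coli as food, at 0.5 g of sediment and 20000 worms per vial. Each of the 5 replicates per sediment pooled the whole animals of 24 vials, and its cDNA carried Cy5 on an array of its own, while Cy3 on every array carried 1 common reference, made by pooling RNA of the worms of every sediment with RNA of a laboratory control. The study ranked the Elbe sediment as the most contaminated, the Rhine as intermediate and the Danube as the least, and used Danube as its baseline. Sediment from a river was combined before use, so the 5 replicates may all have met the same sediment sample, and the p-values then say nothing about how much sediment from 1 river varies.

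The worms of a sediment also met the microbes living in it, and their composition is not among the data used here. The RNA came from whole worms, so fewer cells of a type and less RNA per cell cannot be told apart. Median Cy5 signals were 1433 to 1804 on Elbe, 1455 to 1984 on Rhine and 1322 to 1622 on Danube arrays. Between 45.7 and 61.6% of the spots of an array had the lowest confidence grade. The SD of the log2 ratio over the 5347 probes in use was 0.60 to 0.77 on Elbe arrays, 0.65 to 1.16 on Rhine arrays and 0.55 to 1.11 on Danube arrays, and it was widest on Rhine replicate 1 and Danube replicate 2. By slide number, Danube replicates 1 to 4 came from an earlier series of slides than Danube replicate 5 and all Elbe and Rhine arrays, so in both comparisons with Danube the slide series and the sediment are largely confounded, whereas Elbe against Rhine lies within 1 series.

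A probe was taken as measured if, in every sediment, 3 or more of its 5 spots had a grade above the lowest. By this filter 27 of the 56 members were measured (48.2%), against 28.02% of all gene probes. They were 5 of the 10 lys, 1 of the 5 ilys, 13 of the 22 spp, 1 of the 6 abf, 4 of the 8 cnc and 3 of the 5 fip probes. Of the members, 13 had such a spot on all 15 arrays, among them lys-1, lys-3, lys-7, lys-8, ilys-3, spp-1 and cnc-4, and 0 of the 56 lacked one on every array. The other 29 members failed the filter, 5 of them in a single sediment, 10 in 2 sediments and 14 in all 3.

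**Figure D1:**
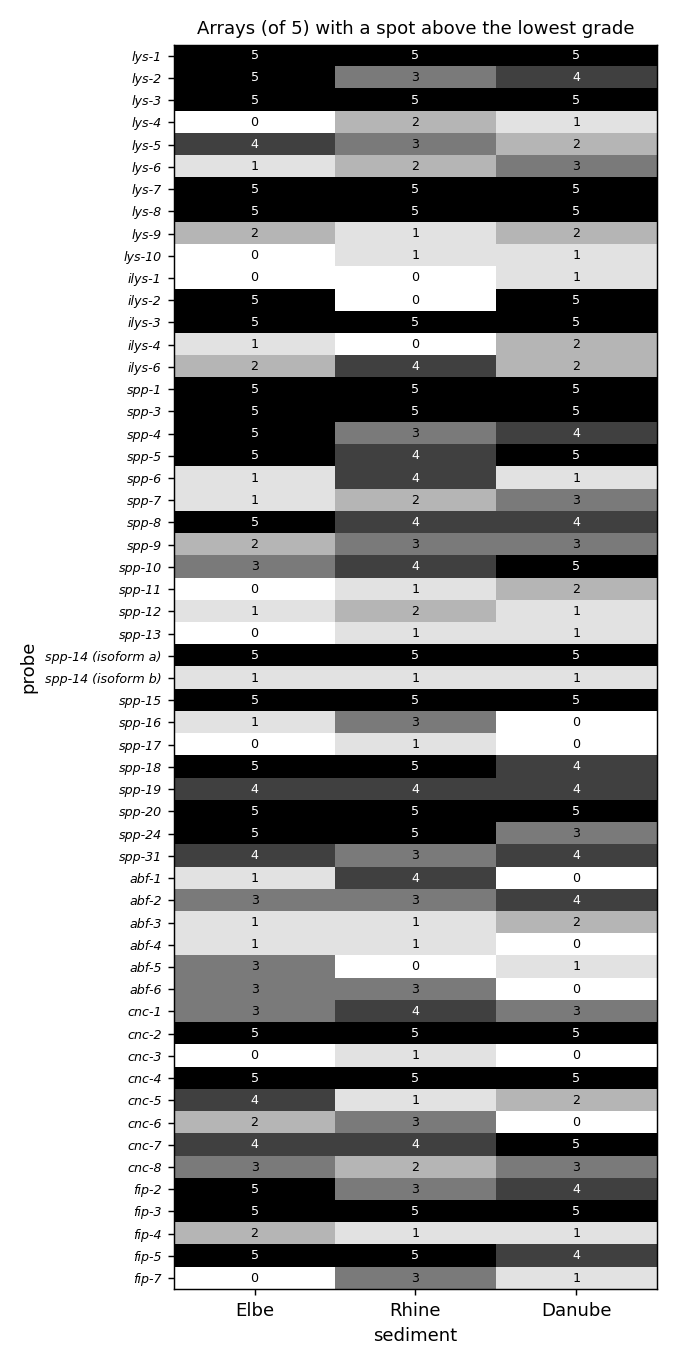
Number of arrays, of 5 per sediment (columns), on which the spot of each of the 56 member probes (rows) lay above the lowest confidence grade; darker cells mark more arrays. ilys-2 had 5 such arrays with Elbe, 0 with Rhine and 5 with Danube.

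Of the members, 0 had an adjusted p under 0.05 in any comparison by limma, with Benjamini-Hochberg adjustment over all 5347 probes. The background was as low, since this threshold was passed by 0.0187% of all probes in Elbe against Danube (1 probe), by 0% in Rhine against Danube and by 0% in Elbe against Rhine. The lowest adjusted p of a member was 0.82 in Elbe against Danube, 0.26 in Rhine against Danube and 0.31 in Elbe against Rhine. Without adjustment, 0, 4 and 5 members had a limma p under 0.05 in these comparisons, and an unmoderated test on the same values also gave 0 members after adjustment. Differences are therefore given at the study's own thresholds, an unadjusted p under 0.05 together with a fold not below 1.4 or not above 0.7, and "past the thresholds" has this meaning throughout.

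In Elbe against Danube, 0 of the 27 members were higher and 0 lower past the thresholds, while 4.34% of all probes were higher and 1.95% lower. In Rhine against Danube, spp-8, spp-15 and spp-18 were higher, 3 of 27 or 11.1%, close to the 11.4% of all probes, and 1 member, lys-1, was lower, against 1.44% of all probes. In Elbe against Rhine, lys-1, lys-7, ilys-3 and cnc-1 were higher, 4 of 27 or 14.8% against 2.49% of all probes, and spp-8 was lower, against 8.02% of all probes. This count depended on the normalization, since with 1 loess curve per array or with median centring 0 members were higher and 4 lower (spp-3, spp-4, spp-10 and spp-15). Of all probes, 1.72% were higher and 10.1% lower with 1 loess curve per array, and 1.23% and 13.1% with median centring. The comparisons share arrays, so the 3 lists are not independent of each other. By the moderated F test over the 3 sediments, 6 of the 27 members had an unadjusted p under 0.05, against 10.8% of all probes, and the lowest adjusted p was 0.32. The exact permutation test of Elbe against Rhine gave a p under 0.05 for 6 members, against 12.8% of all probes. How many of all probes had no overlap between the values of a pair of sediments was not counted. Members described below as not overlapping therefore have no such share beside them.

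**Figure D2:**
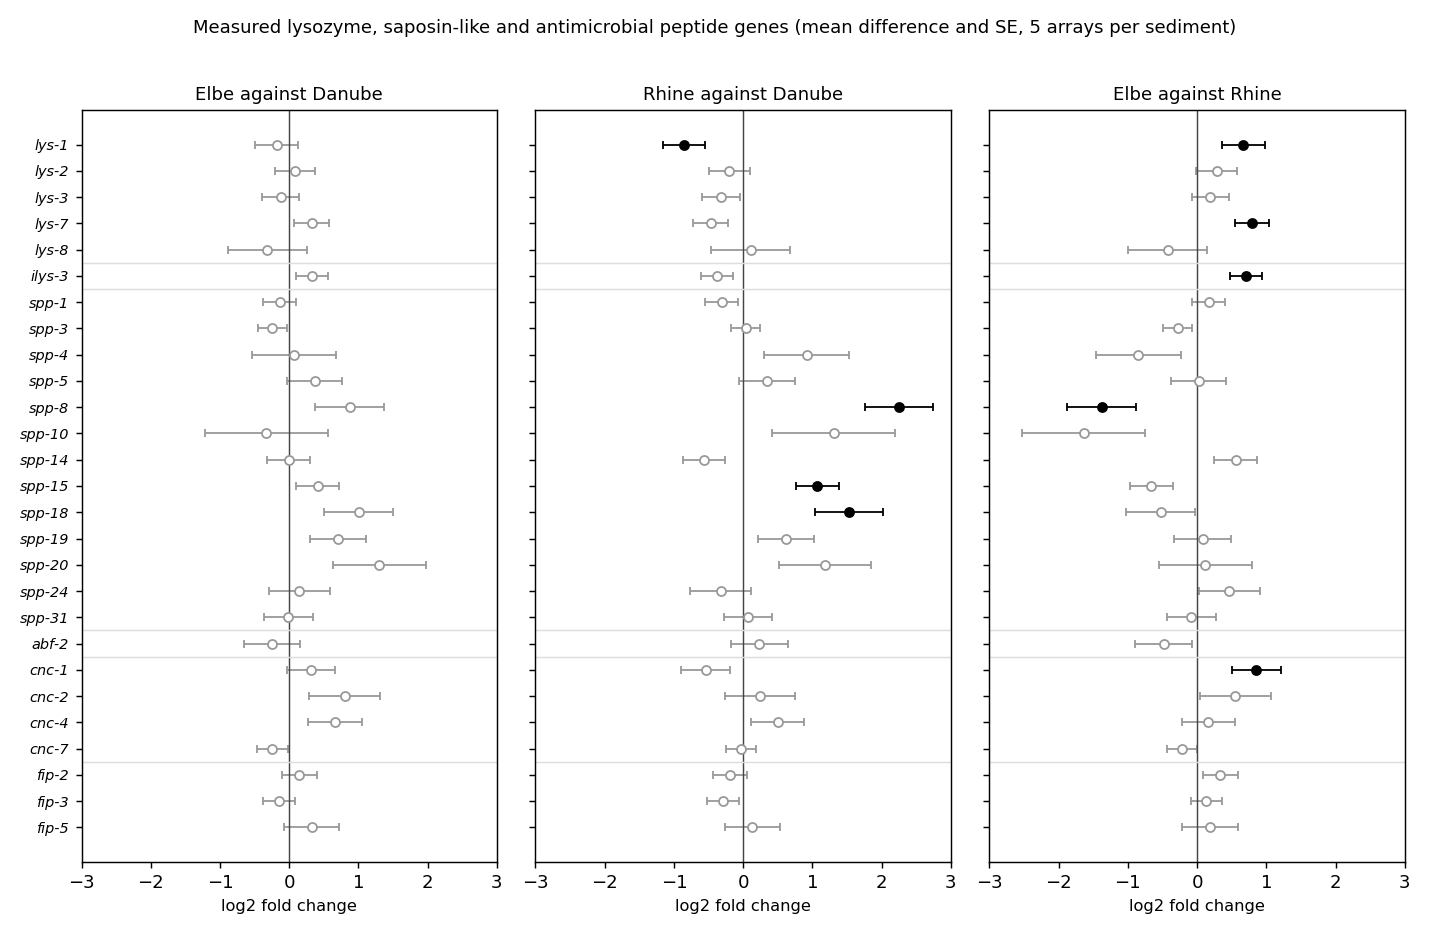
Log2 fold change (x axis) with its limma SE for the 27 measured members (rows, grouped by class) in the 3 comparisons, 5 arrays per sediment. Filled points are past the study's thresholds; in Elbe against Rhine the filled lysozyme points lie between 0.67 and 0.79 (between -0.08 and 0.10 with median centring), and spp-8 lies at -1.38.

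Of the 6 measured lysozymes, lys-1, lys-7 and ilys-3 were higher with Elbe than with Rhine past the unadjusted thresholds. The lys and ilys genes together had a median log2 fold change of 0.48 in Elbe against Rhine, with 5 of 6 above 0, while the median over all probes was -0.17 and 35.7% of all probes lay above 0, and with median centring in place of loess the median of the 6 was -0.11 and that of all probes -0.54. In Rhine against Danube their median was -0.35, with 5 of 6 below 0, while that of all probes was 0.24, and with median centring it was 0.58 against 0.80 for all probes. In Elbe against Danube the median was -0.02, and 3 of 6 lay above 0.

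lys-7 (C02A12.4) encodes a lysozyme of the intestine that contributes to resistance against bacterial pathogens. Its log2 ratios were 0.52, 0.72, 0.76, 0.61 and 0.67 on the Elbe arrays, -0.08, -0.13, -0.33, 0.25 and -0.40 on the Rhine arrays, and -0.17, 0.68, 0.44, 0.95 and -0.23 on the Danube arrays. All Elbe values lay above all Rhine values and close together, whereas the Danube values overlapped with both. Between Elbe and Rhine the log2 fold change was 0.79 (SE 0.25, 1.73-fold), with a limma p of 0.0063, an adjusted p of 0.31 and an exact two-sided permutation p of 0.00794, which is the smallest that 5 against 5 arrays allow. It was 0.32 (SE 0.25) in Elbe against Danube and -0.47 (SE 0.25) in Rhine against Danube, with adjusted p of 0.88 and 0.44 by limma. Blocked by slide series, the lys-7 log2 fold changes against Danube were 0.88 for Elbe and 0.09 for Rhine, neither past the thresholds.

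ilys-3 (C45G7.3), an invertebrate-type lysozyme that C. elegans uses both to digest and to kill bacteria, gave a like order. Its log2 ratios were 0.03, 0.34, -0.03, 0.30 and -0.03 on the Elbe arrays, -0.93, -0.45, -0.44, -1.0 and -0.12 on the Rhine arrays, and -0.62, -0.25, -0.04, 0.06 and -0.16 on the Danube arrays. Elbe and Rhine did not overlap, and the Danube values lay across the gap. ilys-3 was higher by 0.71 on the log2 scale (SE 0.23, 1.63-fold) in Elbe against Rhine (limma p = 0.0074, adjusted p = 0.32, exact permutation p = 0.00794). Its log2 fold change was 0.32 (SE 0.23) in Elbe against Danube and -0.38 (SE 0.23) in Rhine against Danube, neither past the thresholds. The study itself lists ilys-3 among the genes raised with Elbe against Danube, and not with Rhine. In the Cy5-based value table of the authors it was 0.87 higher with Elbe than with Danube (limma p = 0.044, adjusted p = 0.81). The call thus depended on the values used.

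lys-1 (Y22F5A.4) encodes another intestinal lysozyme, 1 of 3 that lie side by side on chromosome V. Its log2 ratios were 0.04, -0.23, 0.16, 0.42 and 0.29 on the Elbe arrays, -0.37, -0.29, -0.95, -0.40 and -0.68 on the Rhine arrays, and 0.42, -0.84, 0.61, 1.09 and 0.29 on the Danube arrays. The Rhine values were all below those of Elbe and below 4 of the 5 Danube values, with Danube replicate 2 as the exception. The log2 fold change was -0.85 (SE 0.31, 0.55-fold) in Rhine against Danube (limma p = 0.013, adjusted p = 0.34, exact permutation p = 0.0397) and 0.67 (SE 0.31, 1.59-fold) in Elbe against Rhine (limma p = 0.044, adjusted p = 0.45, exact permutation p = 0.00794). In Elbe against Danube it was -0.18 (SE 0.31). The Elbe against Rhine value of lys-1 stood just inside the thresholds and missed them when any 1 of 9 arrays was left out (Elbe replicates 1, 3, 4 and 5, Rhine replicates 3, 4 and 5, Danube replicates 1 and 5), with log2 fold changes of 0.57 to 0.70.

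The other members of the lys-1 group did not pass the thresholds. Between Elbe and Rhine, lys-2 had a log2 fold change of 0.28 (SE 0.29) and lys-3 of 0.19 (SE 0.27). In Rhine against Danube, lys-2 had -0.20 and lys-3 had -0.32. lys-8, another lysozyme of the intestine, ran the other way with -0.43 (SE 0.57) in Elbe against Rhine, and its 5 Rhine values included 3.67 on Rhine replicate 1, where the Cy3 signal was 310 against 819 to 1538 on the other Rhine arrays.

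**Figure D3:**
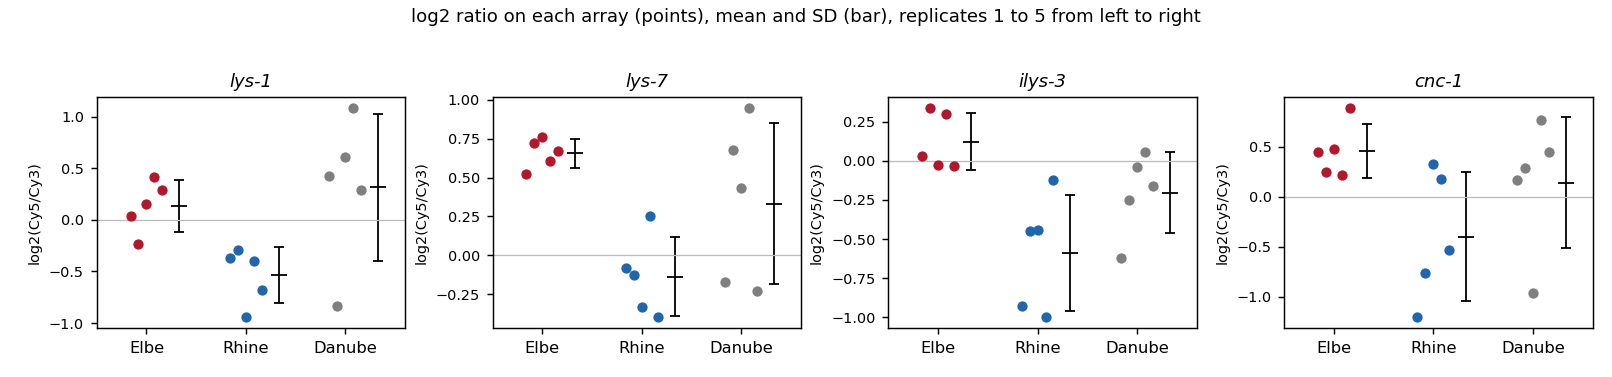
Log2(Cy5/Cy3) of lys-1, lys-7, ilys-3 and cnc-1 on each of the 15 arrays (points; 5 per sediment, each panel with its own y scale), with the mean and SD beside them. Elbe and Rhine points do not overlap for lys-1, lys-7 and ilys-3, and they overlap for cnc-1, where 4 of 5 Rhine values lay below all Elbe values. The share of all probes without such overlap was not counted.

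The size of the lysozyme difference depended on the normalization within the arrays. With 1 loess curve per array in place of 1 per print-tip block, the log2 fold changes in Elbe against Rhine were 0.58 for lys-7, 0.46 for ilys-3 and 0.39 for lys-1, and none of the 3 was past the thresholds. With median centring and no loess they were 0.10, -0.08 and 0.03, while the median of all probes moved to -0.54. Relative to that median the 3 genes stood at 0.64, 0.47 and 0.57, against 0.96, 0.88 and 0.84 with print-tip loess. Of the probes past the thresholds in Elbe against Rhine, 23.7% were higher with print-tip loess, 14.6% with 1 curve per array and 8.63% with median centring.

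Markers of the intestine, where many lysozymes are made, gave values of both signs. Of 6 measured intestinal markers, cpr-1, a cathepsin B-like protease, was higher past the thresholds in Elbe against Rhine at 1.13 (SE 0.27) and lower in Rhine against Danube at -0.69 (SE 0.27), with adjusted p of 0.19 and 0.34 by limma. elt-2, the GATA factor on which most intestinal genes depend, had 0.56 (SE 0.38) and -0.62 (SE 0.38) in these comparisons. The other 4 (act-5, asp-1, vha-6 and ges-1) ranged between -0.40 and 0.32 in Elbe against Rhine, and the median of the 6 was 0.05. The mean log2 ratio of the list lay between -0.37 and 0.34 on the Elbe arrays, -0.54 and 0.19 on the Rhine arrays, and -1.04 and 0.28 on the Danube arrays. The part of intestinal RNA in the lysozyme values was not tested.

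ilys-1, ilys-2 and ilys-3 are neighbours on chromosome IV. ilys-2 was left out by the filter because of Rhine alone, with spots above the lowest grade on 5 Elbe, 0 Rhine and 5 Danube arrays. Its Cy5 signals were 1953, 1193, 5785, 13484 and 7117 on the Elbe arrays, 1131, 2000, 895, 311 and 1222 on the Rhine arrays, and 11078, 2201, 1992, 3231 and 2827 on the Danube arrays. The reference channel was dim on the same arrays, with Cy3 signals of 108 to 736 on Rhine, against 486 to 4013 on Elbe and 1213 to 5669 on Danube arrays, although Cy3 held the same RNA pool throughout.

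With no Rhine spot of ilys-2 above the lowest grade, no fold is given from its Cy5 signals. In its ratio to the reference, fitted over all 19084 probes, the log2 fold change was 1.18 (SE 0.78, adjusted p = 0.80) in Elbe against Rhine and -1.06 (SE 0.78, adjusted p = 0.76) in Rhine against Danube by limma. ilys-1, with 1 such spot in all, had 1.51 (SE 0.77) and -1.001 (SE 0.77) in the same comparisons. The 3 probes thus had the same signs, and whether RNA of 1 gene binds the probes of the other members of its family was not tested.

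The saposin-like genes gave the highest values in Rhine against Danube. Of the 13 measured spp probes, 10 lay above 0 in Rhine against Danube, with a median of 0.62, while 69.9% of all probes lay above 0 with a median of 0.24. Under 1 loess curve per array and median centring the spp median was 0.88 and 1.17, and that of all probes 0.39 and 0.80. In Elbe against Danube the spp median was 0.14, and in Elbe against Rhine it was -0.08 with 6 of 13 above 0. The reference channel also differed. With Cy3 alone, spp-4, spp-8, spp-10, spp-19 and spp-20 were lower past the thresholds in Rhine against Danube, as were 13.8% of all probes. With Cy5 alone these 5 genes differed by -0.43, 1.46, -0.26, 0.22 and 0.68 in that comparison. The part of the reference channel in the spp values was not tested.

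spp-8 (C28C12.5) had the lowest p of all members in Rhine against Danube. Its log2 ratios were -0.69, 0.05, -0.45, 0.81 and -0.18 on the Elbe arrays, 2.10, -0.01, 0.76, 1.85 and 1.73 on the Rhine arrays, and -0.11, -2.38, -1.64, -0.67 and -0.03 on the Danube arrays. Rhine and Danube met without overlap, at -0.01 and -0.03, and Elbe overlapped with both. The log2 fold change of spp-8 was 2.25 (SE 0.50, 4.77-fold) in Rhine against Danube (limma p = 0.00034, adjusted p = 0.26, exact permutation p = 0.00794), -1.38 (SE 0.50) in Elbe against Rhine (adjusted p = 0.36, exact permutation p = 0.0397) and 0.88 (SE 0.50) in Elbe against Danube (adjusted p = 0.86). Against Danube replicate 5 alone, spp-8 differed by -0.061 with Elbe.

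Both channels entered the spp-8 ratio. The normalized Cy5 signal alone differed by 1.46 on the log2 scale between Rhine and Danube (SE 0.71, adjusted p = 0.54 by limma), and the Cy3 signal of the reference by -1.04 (SE 0.48, adjusted p = 0.33). In Elbe against Rhine the Cy5 signal of spp-8 differed by 0.24 (SE 0.71), opposite to the ratio, and the Cy3 signal by 1.38 (SE 0.48). The spots of Rhine replicate 5 and Danube replicate 4 had the lowest grade, with confidence scores of 0.01 and 0.03. Within the second slide series, where Danube replicate 5 is the only Danube array, spp-8 was 1.32 higher with Rhine and no longer past the thresholds, and lys-1, at -0.83, also missed them.

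spp-15 (C48E7.10) had log2 ratios of -0.46, 0.68, -0.81, 0.70 and -0.47 on the Elbe arrays, 0.35, 0.77, 0.55, 0.57 and 0.69 on the Rhine arrays, and -0.46, -0.02, -1.06, -0.54 and -0.34 on the Danube arrays. Rhine and Danube did not overlap, and the Elbe values fell into a pair level with Rhine and 3 level with Danube. Its log2 fold change was 1.07 (SE 0.31, 2.10-fold) in Rhine against Danube (limma p = 0.0034, adjusted p = 0.34, exact permutation p = 0.00794), 0.41 (SE 0.31) in Elbe against Danube and -0.66 (SE 0.31) in Elbe against Rhine. Its Cy5 signal alone was 1.25 higher with Rhine than with Danube (SE 0.52, adjusted p = 0.48). Against Danube replicate 5 alone the ratio was 0.93 higher with Rhine and not past the thresholds.

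spp-18 (F27C8.4) had log2 ratios of -0.16, 0.20, 0.72, 0.25 and -1.29 on the Elbe arrays, 0.34, -0.23, 0.62, 1.17 and 0.46 on the Rhine arrays, and -1.47, -2.73, 0.07, -1.14 and -0.01 on the Danube arrays. Rhine overlapped with the 2 highest Danube arrays. For spp-18 the log2 fold change was 1.53 (SE 0.50, 2.89-fold) in Rhine against Danube (limma p = 0.0072, adjusted p = 0.34, exact permutation p = 0.0238) and 1.00 (SE 0.50, adjusted p = 0.82) in Elbe against Danube. The reference channel of spp-18 was level between Rhine and Danube (0.02, SE 0.42), and its Cy5 signal alone was 1.72 higher with Rhine (SE 0.52, adjusted p = 0.40). Against Danube replicate 5 alone the ratio differed by -0.045 with Elbe and by 0.48 with Rhine, and the Rhine difference was not past the thresholds. With array weights the Rhine difference was 1.03 and missed them as well.

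**Figure D4:**
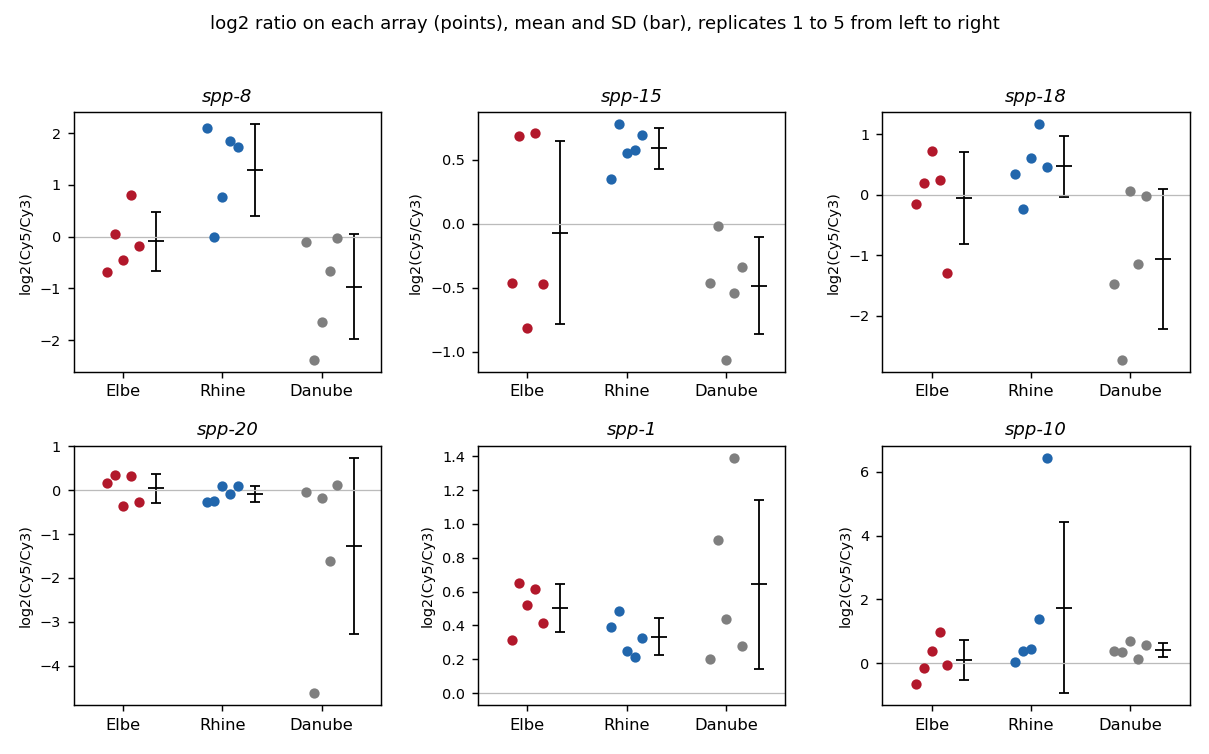
Log2(Cy5/Cy3) of spp-8, spp-15, spp-18, spp-20, spp-1 and spp-10 on each of the 15 arrays (points; 5 per sediment, each panel with its own y scale), with the mean and SD beside them. Danube replicate 2 stands apart for spp-20 (-4.63) and Rhine replicate 5 for spp-10 (6.44).

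Other saposin-like genes varied widely among replicates. spp-20 had log2 ratios of 0.17, 0.34, -0.37, 0.33 and -0.28 on the Elbe arrays, -0.28, -0.25, 0.10, -0.08 and 0.10 on the Rhine arrays, and -0.03, -4.63, -0.17, -1.62 and 0.13 on the Danube arrays. Elbe and Rhine values lay close to 0, and 2 Danube arrays lay far below. Differences of 1.30 (SE 0.67) in Elbe against Danube and 1.18 (SE 0.67) in Rhine against Danube on the log2 scale had adjusted p of 0.83 and 0.45 by limma, and without Danube replicate 2 they were 0.46 and 0.34. Blocked by slide series, they were -0.089 and -0.21. spp-19, which lies near spp-20 on chromosome V, had 0.70 (SE 0.41) and 0.62 (SE 0.41), with adjusted p of 0.86 and 0.51.

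spp-10 lies near spp-8 on chromosome IV. Its log2 fold change was 1.31 (SE 0.89) in Rhine against Danube and -1.64 (SE 0.89) in Elbe against Rhine, with adjusted p of 0.52 for both by limma. Without Rhine replicate 5 they were 0.13 and -0.46. On that array the ratio was 6.44 with a Cy3 signal of 79.8 and a confidence score of 0.01, while the other Rhine arrays lay between 0.03 and 1.39, the Elbe arrays between -0.66 and 0.98 and the Danube arrays between 0.13 and 0.71.

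spp-1, whose protein kills bacteria by opening pores in their membranes, was measured on all arrays. Its log2 ratios were 0.31, 0.65, 0.52, 0.62 and 0.42 on the Elbe arrays, 0.39, 0.49, 0.25, 0.21 and 0.33 on the Rhine arrays, and 0.20, 0.90, 0.44, 1.39 and 0.28 on the Danube arrays. The 3 sediments overlapped, and no comparison was past the thresholds (log2 fold changes -0.14, -0.31 and 0.17 in Elbe against Danube, Rhine against Danube and Elbe against Rhine, SE 0.24 each). In the Cy5 channel alone spp-1 was 0.66 higher with Elbe than with Danube (SE 0.30, adjusted p = 0.49), and the Cy3 channel of the reference was 0.77 higher (SE 0.36).

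The spp-3 to spp-6 genes stand next to each other on chromosome X. In Rhine against Danube spp-3 had 0.03 (SE 0.21), spp-4 had 0.92 (SE 0.61) and spp-5, a pore-forming caenopore of the gut, had 0.34 (SE 0.40). None was past the thresholds in any comparison. The spp-14 probe for isoform a had -0.56 (SE 0.31) in Rhine against Danube and 0.56 (SE 0.31) in Elbe against Rhine, with adjusted p of 0.44 and 0.53. The probe for its isoform b was left out, with 1 spot above the lowest grade in each sediment.

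spp-16 was left out by the filter, with spots above the lowest grade on 1 Elbe, 3 Rhine and 0 Danube arrays. Its Cy5 signals were 3406, 1363, 410, 1735 and 1590 on the Elbe arrays, 8589, 5056, 3010, 8864 and 2238 on the Rhine arrays, and 1425, 1143, 909, 1401 and 1726 on the Danube arrays. All Rhine signals lay above all Danube signals. The Cy3 signals were 402 to 8011 on Rhine arrays and 306 to 831 on Danube arrays, and the ratio differed by 0.59 (log2, SE 0.69, adjusted p = 0.845 by limma) in the fit over all probes.

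Among the antimicrobial peptides, the caenacins cnc-1, cnc-2, cnc-4, cnc-3 and cnc-5 lie together on chromosome V, and 3 of these 5 were measured. cnc-1 (R09B5.2) had log2 ratios of 0.44, 0.25, 0.48, 0.21 and 0.89 on the Elbe arrays, -1.21, -0.76, 0.33, 0.17 and -0.54 on the Rhine arrays, and 0.17, 0.29, -0.96, 0.76 and 0.45 on the Danube arrays. Elbe values were all above 0, and 3 of the 5 Rhine values were below 0. For cnc-1 the log2 fold change was 0.86 (SE 0.35, 1.81-fold) in Elbe against Rhine (limma p = 0.026, adjusted p = 0.41, exact permutation p = 0.0317) and -0.54 (SE 0.35) in Rhine against Danube. Its spots just met the filter, on 3 Elbe, 4 Rhine and 3 Danube arrays. It missed the thresholds without Elbe replicate 5 (0.75), Rhine replicate 1 (0.66) or Rhine replicate 2 (0.77), and in the Cy5-based value table of the authors it differed by 0.04. The Cy5 signal of cnc-1 alone differed by 0.10 (SE 0.43) between Elbe and Rhine, and the Cy3 signal by -0.68 (SE 0.47).

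cnc-2, a caenacin that fungal infection induces in the epidermis through TGF-beta signalling, had log2 ratios of 0.12, 1.49, 0.20, 0.91 and 0.43 on the Elbe arrays, 0.67, 0.23, -0.04, -0.19 and -0.30 on the Rhine arrays, and 0.08, -2.35, 0.40, 1.27 and -0.25 on the Danube arrays. The groups overlapped, and Danube replicate 2 lay far below the rest. cnc-2 differed by 0.80 (SE 0.51, adjusted p = 0.87 by limma) in Elbe against Danube and 0.55 (SE 0.51, adjusted p = 0.71) in Elbe against Rhine. cnc-4 had 0.66 (SE 0.39) in Elbe against Danube and 0.50 (SE 0.39) in Rhine against Danube. Its Danube values were close together, between -0.63 and -0.39, while the Elbe values ran from -0.92 to 1.11 and the Rhine values from -0.63 to 0.95.

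The measured fip genes stayed within 0.34 of 0 on the log2 scale in all 3 comparisons with print-tip loess, while with median centring their median was 0.48 in Rhine against Danube and -0.41 in Elbe against Rhine, against 0.80 and -0.54 for all probes. fip-3 had -0.15 (SE 0.23) in Elbe against Danube, -0.29 (SE 0.23) in Rhine against Danube and 0.14 (SE 0.23) in Elbe against Rhine. abf-2, a defensin-like peptide with antibacterial activity that is made in the pharynx, had -0.25 (SE 0.41), 0.23 (SE 0.41) and -0.48 (SE 0.41) in the same comparisons, and its Rhine values ran from -0.69 to 1.403.

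The 29 members left out by the filter were read from a fit over all 19084 probes, in which 2.28% of probes were higher and 1.95% lower past the thresholds in Elbe against Danube, 4.197% and 2.55% in Rhine against Danube, and 2.62% and 3.68% in Elbe against Rhine. Their median log2 fold changes were 0.02, -0.03 and 0.20 in these comparisons. Among them, lys-4 was lower with Elbe than with Danube at -2.67 (SE 1.15) and lower with Rhine at -3.48 (SE 1.15), with adjusted p of 0.96 and 0.73, and 12 of its 15 spots had the lowest grade. abf-6 had -0.99 (SE 0.40) in Rhine against Danube and 1.00 (SE 0.40) in Elbe against Rhine, with adjusted p of 0.73 and 0.77 by limma. The remaining 27 had values past no threshold.

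The signal of the sediment channel and that of the ratio did not always point the same way. The signs of the ratio and of Cy5 alone matched for 22 of the 27 members in Elbe against Danube, 17 in Rhine against Danube and 21 in Elbe against Rhine. The Cy3 signal, which held the same RNA pool on all arrays, differed by a median of -0.34 over all probes in Rhine against Danube and by 0.45 in Elbe against Rhine on the log2 scale. With Cy5 alone, spp-1, spp-8, spp-15 and spp-19 were higher and spp-10 lower past the thresholds in Elbe against Danube, where 8.32% of all probes were higher and 1.33% lower. By the same signal spp-15 and spp-18 were higher in Rhine against Danube, where 6.62% of all probes were higher and 2.88% lower, and 0 members passed in Elbe against Rhine, where 3.68% of all probes were higher and 1.65% lower. For lys-1, lys-7 and ilys-3 the Cy5 difference in Elbe against Rhine was 1.01 (SE 0.51), 0.87 (SE 0.42) and 0.85 (SE 0.45), of the same sign as the ratio but not past the thresholds. In the Cy5-based value table of the authors the 3 genes differed by 1.17, 1.07 and 1.04, past the unadjusted thresholds. Their adjusted p there were 0.65, 0.63 and 0.65 by limma. With Cy3 alone, 3 members were higher in Elbe against Rhine (spp-4, spp-8 and spp-15), against 17.4% of all probes. In Rhine against Danube 5 were lower (spp-4, spp-8, spp-10, spp-19 and spp-20), against 13.8%.

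**Figure D5:**
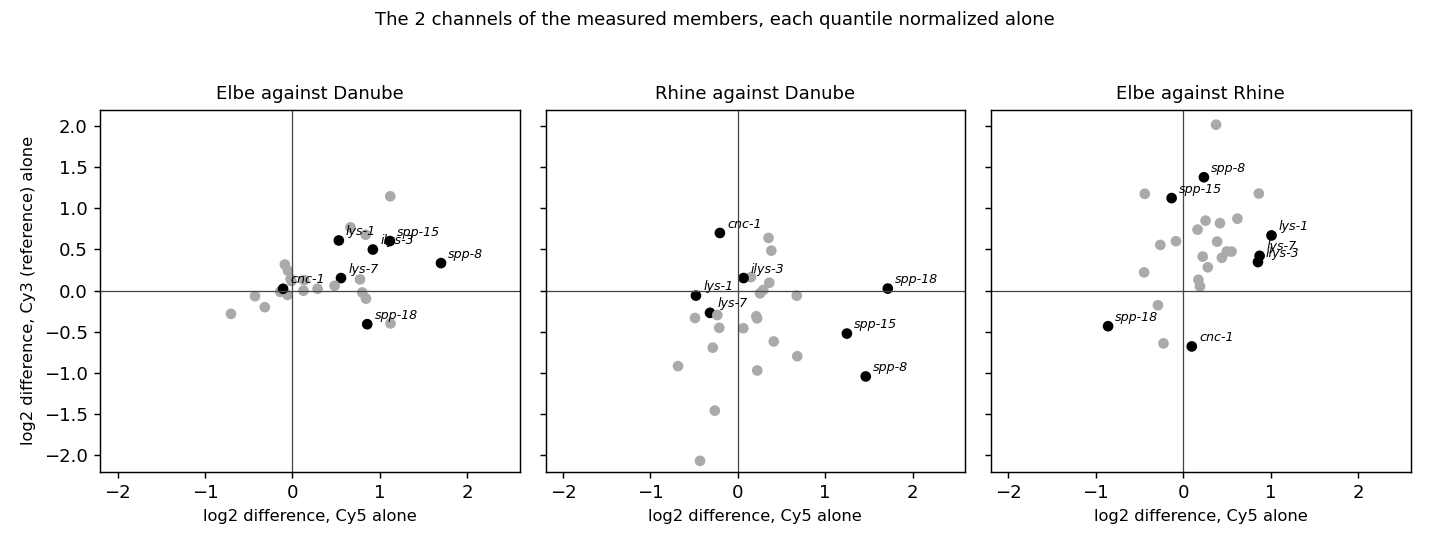
Log2 differences of the 27 measured members in the Cy5 channel alone (x axis) and in the Cy3 reference channel alone (y axis), each quantile normalized between arrays, in the 3 comparisons. In Elbe against Rhine 23 of 27 members lay above 0 on the y axis, spp-8 at 1.38 among them.

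The pathways that control these peptides, and the other effectors, were read against the same shares of all probes. These were 4.34% higher and 1.95% lower in Elbe against Danube, 11.4% and 1.44% in Rhine against Danube, and 2.49% and 8.02% in Elbe against Rhine. In the p38 MAP kinase pathway, 6 of 19 genes were measured (tir-1, sek-1, atf-7, vhp-1, rack-1 and sta-2) and 0 were past the thresholds in any comparison, with medians of -0.07, -0.07 and -0.09 in Elbe against Danube, Rhine against Danube and Elbe against Rhine. In the TGF-beta Sma/Mab pathway, 3 of 9 genes were measured, and 1 of these 3, sma-3, a Smad transducer of the pathway, was higher in Elbe against Rhine at 0.61 (SE 0.21, adjusted p = 0.33 by limma). Among 17 other regulators, 8 were measured, of which 2 were higher in Rhine against Danube, and 1 was higher and 2 lower in Elbe against Rhine. Of these, nhr-49, a nuclear receptor, was higher in Rhine against Danube at 0.94 (SE 0.40) and lower in Elbe against Rhine at -1.27 (SE 0.40). cebp-2 was higher in Rhine against Danube at 1.51 (SE 0.65), and zip-2, a bZIP regulator of pathogen response genes, was higher in Elbe against Rhine at 0.55 (SE 0.23). hlh-26 was lower in Elbe against Rhine at -1.81 (SE 0.80). None of these had an adjusted p under 0.05.

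Other effectors gave values in both directions. Of 21 pathogen-response effectors, 11 were measured. In Elbe against Danube 2 of the 11 were higher and 1 lower, and in Rhine against Danube 1 was higher and 0 lower. irg-1, a gene named for its response to infection, was higher with Elbe at 2.69 (SE 1.04) and with Rhine at 4.61 (SE 1.04) against Danube. This SE was above that of any measured member (at most 0.89), and its spot grades and slide series were not examined here. Against Danube, clec-86 was higher with Elbe at 0.86 (SE 0.33), and dod-22 was lower with Elbe at -1.91 (SE 0.58). Between Elbe and Rhine, dod-24 was higher at 0.83 (SE 0.38) and irg-4 lower at -0.75 (SE 0.33). Of the 11 epidermal nlp peptides, 7 were measured, and nlp-33 was lower in Rhine against Danube at -1.06 (SE 0.39) and higher in Elbe against Rhine at 0.87 (SE 0.39), while nlp-29 did not pass with -0.22 (SE 0.27) and 0.34 (SE 0.27). Of 29 fip-related genes, 4 were measured and 0 passed. All adjusted p in these lists were 0.19 or higher.

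Of the 21 measured markers of other tissues, 6 were higher past the thresholds in Rhine against Danube (28.6%), against 11.4% of all probes. They were col-19 and col-140 of the 4 measured epidermal markers, tnc-2 and myo-2 of the 4 pharyngeal markers, vit-3 of the 4 yolk genes and unc-15 of the 3 body wall muscle genes, while 0 of the 5 oocyte and embryo markers and 0 of 1 sperm marker passed. Neither of the 2 coelomocyte markers was measured. In Elbe against Rhine, unc-15 was lower at -0.93 (SE 0.37), and in Elbe against Danube 0 of these markers passed. The mean log2 ratio of the epidermal markers lay between -0.04 and 0.37 on Elbe, -0.28 and 0.77 on Rhine and -1.03 and 0.21 on Danube arrays. For pharyngeal markers it lay between -0.49 and 0.63 on Rhine and -1.20 and -0.13 on Danube arrays. For body wall muscle it lay between -0.03 and 0.89 on Rhine and -2.33 and 0.28 on Danube arrays. Danube replicates 1 to 4 were of the earlier slide series, and the markers were not fitted by slide series. The part of tissue proportions in the values of the members was not tested.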

How the data were processed

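For each of the 15 arrays the authors deposited the spot intensity of both dyes on a linear scale, as BlueFuse 3.4 wrote it and without normalization, and a confidence score from 0 to 1. A value table of 18653 rows, also deposited, holds linear ratios to the median of each gene after print-tip Lowess and median polishing. In it 53 of the 56 members were found by correlation with the normalized Cy5 signal (1 minus r under 0.001), so the reference is not divided out there.

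The deposited intensities were turned into log2(Cy5/Cy3) and normalized by print-tip loess (48 blocks, limma 3.58.1, R 4.3.3), with the 2370 control and empty spots at weight 0. A spot above the lowest grade has a confidence score over 0.05, and the filter kept 5347 of 19084 probes. The 15 arrays entered 1 fit (lmFit, eBayes), with p-values adjusted by Benjamini-Hochberg. Single probes were also tested by exact permutation over the 252 splits, unadjusted. The steps were tested on simulated data. Each channel alone was quantile normalized between arrays.

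The members and lists were chosen with earlier results of these data known. Full statistics went to the 4 members with the lowest p in each comparison, to the brightest of each class, and to spp-1, spp-10, spp-16, spp-19, cnc-4 and ilys-3, which the study's tables name. Gene names and neighbours come from RefSeq (WBcel235). Sequences were not used here. Precision is limited by the 5 arrays per sediment.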

Additional observations from a re-analysis of the deposited data

Results flagged for a closer look

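Of the 48 groups of 5 arrays formed by the 16 members with full statistics, 2 had a value far from the others, where chance gives about 1 in 20. spp-10 had a log2 ratio of 6.44 on Rhine replicate 5, while its other Rhine values lay between 0.03 and 1.39. spp-16, which the filter left out, had -3.06 on Elbe replicate 3, while its other Elbe values lay between 0.09 and 0.88.

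Of the 15 measured members among those with full statistics, 5 had an unadjusted p under 0.05 by the exact two-sided permutation test of Elbe against Rhine. Since 4 members entered this set for their low limma p in that same comparison, 5 of 15 is not a rate. Over all 27 measured members 6 had such a permutation p, the other being the spp-14 probe for isoform a (0.56, permutation p = 0.0238). Over all 5347 probes the share was 12.8%. The log2 differences, Elbe minus Rhine, were 0.67 for lys-1, 0.79 for lys-7 and 0.71 for ilys-3, each with a permutation p of 0.00794, 0.86 for cnc-1 with a permutation p of 0.0317, and -1.38 for spp-8 with a permutation p of 0.0397. Their adjusted p by limma over all probes were 0.45, 0.31, 0.32, 0.41 and 0.36, so none of the 5 passed the correction. The difference was positive on 5 of 5 Elbe arrays for the first 4, set against the Rhine mean, and negative on 5 of 5 for spp-8. These 5 genes were flagged by this same comparison, so the counts add no separate evidence. The share of all probes with such counts was not taken.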

How the results depend on the processing

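Under all alternatives run, 0 members had an adjusted p under 0.05, and the lowest adjusted p was 0.0718, for Elbe against Rhine with a confidence of at least 0.5. In Elbe against Danube, where 0 members were past the thresholds, the count was 1 with median centring (spp-18) and 1 without a filter (lys-4). It was 2 with array weights (lys-7 and spp-19), 1 with the value table of the authors (ilys-3), 5 with Cy5 alone and 1 with Cy3 alone. Of all probes, 4.04% were higher and 0.898% lower with median centring, 2.28% and 1.95% without a filter, and 4.47% and 3.44% with array weights. The shares were 3.15% and 2.95% of the rows of the value table, 8.32% and 1.33% with Cy5 alone, and 2.08% and 1.03% with Cy3 alone. In Rhine against Danube the count was 4, and 8 with median centring (all higher, as were 33.3% of all probes). With good spots on all 15 arrays it was 2 of 13 members, where 16.4% of probes were higher and 1.31% lower. With a confidence of at least 0.5 it was 0 of 7, where 15.1% of probes were higher and 0.721% lower. It was 2 with Cy5 alone (6.62% and 2.88% of all probes). Blocked by slide series, Danube replicate 5 alone stands for Danube. The median log2 fold change was then 0.06 for the 27 members and 0.17 for all probes. In Elbe against Rhine the count was 5, and 2 with a confidence of at least 0.5, where 2.16% of probes were higher and 10.3% lower. It was 0 with Cy5 alone (3.68% and 1.65% of all probes) and 3 with Cy3 alone (17.4% and 1.16%). With array weights 4 were higher and 3 lower there, against 3.09% and 9.20% of all probes. The value table had 5 of 53 higher there (lys-1, lys-7, ilys-2, ilys-3 and cnc-5) and 2 lower (spp-16 and spp-18). Of its rows 3.45% were higher and 3.67% lower. In Rhine against Danube it had 2 higher (spp-16 and spp-18) and 3 lower (ilys-1, ilys-2 and spp-17), against 3.65% and 3.57% of its rows. The value table was used without the filter on spots, which ilys-1, ilys-2, cnc-5, spp-16 and spp-17 failed. On the Rhine arrays ilys-2 had 0 spots above the lowest grade and cnc-5 had 1. spp-16 had 0 on the Danube arrays, and ilys-1 and spp-17 had 1 each over all 15 arrays. With 1 loess curve or median centring, 4 members were lower in Elbe against Rhine and 0 higher, and none was among the 5 of the main fit. Of all probes, 10.1% were lower with 1 loess curve and 13.1% with median centring. The share of higher probes among all probes past the thresholds was 69.0% in Elbe against Danube and 88.8% in Rhine against Danube, and 81.8% and 97.5% with median centring. Leaving out 1 array gave 0 to 3 members in Elbe against Danube, 4 to 6 in Rhine against Danube and 3 to 6 in Elbe against Rhine, with 0 to 0 past the adjusted threshold. The highest count in Elbe against Danube came without Danube replicate 5 (spp-8, spp-18 and spp-20).

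The sign turned with median centring for lys-1 in Rhine against Danube (0.012) and ilys-3 in Elbe against Rhine (-0.076). For spp-8 in Elbe against Rhine it turned with Cy5 alone (0.24) and the value table (0.023). The cause of these turns was not tested. The Cy3 reference is the denominator of the ratio, so a Cy3 difference opposite in sign to the ratio enlarges it and is no reversal. In Elbe against Rhine such Cy3 differences were 1.38 for spp-8 and -0.68 for cnc-1. In Rhine against Danube they were -1.04 for spp-8 and -0.52 for spp-15.

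The 15 pairs of arrays with the same replicate number correlated at -0.04 to 0.13, and 2 of them over 0.1. Their median correlation was 0.02, against -0.0065 for other pairs. Correlation alone cannot show whether replicates of the same number were handled together, so pairing stays unknown. With the replicate block, 1 member was past the thresholds in Elbe against Danube (spp-8), 5 in Rhine against Danube and 6 in Elbe against Rhine. Of all probes, 4.23% were then higher and 2.08% lower in Elbe against Danube. The shares were 11.3% and 1.61% in Rhine against Danube, and 2.69% and 8.29% in Elbe against Rhine. Without Danube replicate 2 and Rhine replicate 1, and with Cy3 alone, the alternatives were chosen after seeing the data. Leaving out both arrays gave 0, 6 and 6 members. Of all probes, 3.37% were then higher and 3.31% lower in Elbe against Danube. The shares were 6.28% and 1.80% in Rhine against Danube, and 3.01% and 7.76% in Elbe against Rhine. The 29 members left out had a median SE of 0.69, against 0.35 for the 27 measured.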
